A study of Mus musculus with 2 samples.

Results

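Junctions of at most 100 bases in RNA of mouse stomach, called short introns here, are described. A junction of the splice junction table counts as a short intron when the interval between its ends was at most 100 bases and at least 5 reads crossed it in both of its read counts, named R1 and R2. Of the 340787 junctions in the table, 24216 were this short, 74900 had the reads, and 6572 met both limits (8.77% of those with the reads). The members were thus selected on measured values, their length and their reads, and both are given as a description without a test. A read that skips a short interval may cross a spliced intron, or a gap placed by the alignment over repeats or a deletion, and the table alone cannot tell these apart. This bears most on the 387 members that were tied to no annotated intron and carried a 0 in a field named C of the table, described with the end bases. The RNA came from stomach of 8-week-old C57BL/6J mice, with no genetic change or treatment named in the labels, and tissue of male and female littermates was pooled in each of 2 libraries, which carry biological replicate numbers 1 and 2. Both libraries name the same donor record, so the spread between them may be technical in part. Polyadenylated RNA above 200 nucleotides, depleted of ribosomal RNA, was read as stranded pairs of 76 nucleotides. The design has 1 group, so no contrast between conditions was possible. Estimated counts per library summed to 52363597 and 62452468 over genes.

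An intron is removed by the spliceosome, which must reach the donor site at its start, the branch point and the acceptor site at its end. In mammals most introns are far longer than the exons around them and are recognised across the exon. The shortest ones leave little room for the machinery and are thought to be recognised across the intron itself. Donor sites almost always begin with GT, in a small class with GC, and acceptor sites end with AG.

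The sequences of a few short introns show what these intervals hold. They were read from GENCODE M21 transcripts on mm10 that keep the intron inside an exon, on the strand of the gene, with the 2 first and 2 last bases in capitals. Actb, the cytoplasmic beta actin, held the short intron with the most reads, and Mrps24, a protein of the small mitochondrial ribosomal subunit, one of the shortest among those with many reads. Atp4a encodes the catalytic subunit of the gastric proton pump, and Pop5 a subunit of ribonuclease P. The intron of Siglecf, a sialic acid receptor of myeloid cells, and the 50-base intron of 2310061I04Rik stand for the low end of the lengths.
Actb: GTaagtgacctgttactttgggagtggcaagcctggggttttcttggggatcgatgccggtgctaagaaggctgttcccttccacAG
Mrps24: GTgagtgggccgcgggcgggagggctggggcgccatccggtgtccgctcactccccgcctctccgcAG
Atp4a: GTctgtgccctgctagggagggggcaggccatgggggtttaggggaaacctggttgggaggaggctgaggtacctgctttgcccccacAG
Pop5: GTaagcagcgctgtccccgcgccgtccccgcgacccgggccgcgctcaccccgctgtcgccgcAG
Siglecf: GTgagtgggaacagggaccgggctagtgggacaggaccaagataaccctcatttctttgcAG
2310061I04Rik, 50 bases: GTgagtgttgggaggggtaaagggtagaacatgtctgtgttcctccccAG
2310061I04Rik, 73 bases: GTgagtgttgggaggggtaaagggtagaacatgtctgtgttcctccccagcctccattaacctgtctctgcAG
On mm10 the Actb intron lies at chr5:142905477-142905563 on the minus strand and is intron 2 of 4, between coding exons. The Mrps24 intron lies at chr11:5707556-5707623 on the minus strand and is intron 1 of 3. The Atp4a intron lies at chr7:30720636-30720725 on the plus strand and is intron 15 of 21. The Pop5 intron lies at chr5:115238070-115238134 on the plus strand and is intron 1 of 5, and the Siglecf intron at chr7:43351585-43351646 on the plus strand is intron 2 of 9. The 2 introns of 2310061I04Rik start at the same donor and lie at chr17:35892990-35893039 and chr17:35892967-35893039 on the minus strand, so that the first 50 bases of the longer are the shorter. All of these interrupt the coding sequence of their transcripts. GC content ran from 53.4% in the 73-base intron of 2310061I04Rik to 77.9% in Mrps24 and 80% in Pop5.

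The lengths of the 6572 short introns had a median of 85 bases, with quartiles of 79 and 92. The shortest junction in the whole table was 31 bases long, so the shorter intron of Xbp1, which is cut outside the spliceosome, could not appear in it, and no junction of at most 100 bases was tied to Xbp1. Because the junctions are on mm9 and the annotation on mm10, a junction was tied to an annotated intron when at least 2 junctions of one gene matched that gene's introns in length and in the distances between them. Of the short introns, 5999 (91.3%, 95% exact interval 90.6% to 91.9%) were tied, to 2603 genes, and 573 were not. Of the tied ones, 146 were tied to introns of more than 1 gene and are named after 1 of them.

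Few junctions below 65 bases were tied. Of 209 junctions of 31 to 60 bases, 2 were tied (0.957%, interval 0.116% to 3.41%). At 61 to 70 bases 152 of 221 were tied (68.8%, interval 62.2% to 74.8%), and at 71 to 80 bases 94.6%, at 81 to 90 bases 95.8% and at 91 to 100 bases 94.7%. Junctions of 101 to 150 bases were tied to a like extent, at 93%, and those above 10000 bases less often, at 66%. The 8 shortest tied introns lay in 2310061I04Rik (50 bases, 16 reads in R1 and 6 in R2), Gcdh (57 bases, 839 and 1478), Siglecf (62 bases, 5 and 5), Adam11 (63 bases, 11 and 30), Adck5 (63 bases, 22 and 10), and Pop5, Rnf126 and Slc27a1, with 65 bases each and 2728 and 879, 1013 and 702, and 127 and 114 reads. Their reads thus ran from 5 at the limit to 2728 in R1. Only 5 tied introns were shorter than 65 bases, against 236 junctions that were not tied. From there on tied junctions came to outnumber the others, with 30 of 69 bases tied and 16 not, and 57 of 70 bases tied and 8 not, and junctions that were not tied went on up to the limit of 100 bases.

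**Figure D1:**
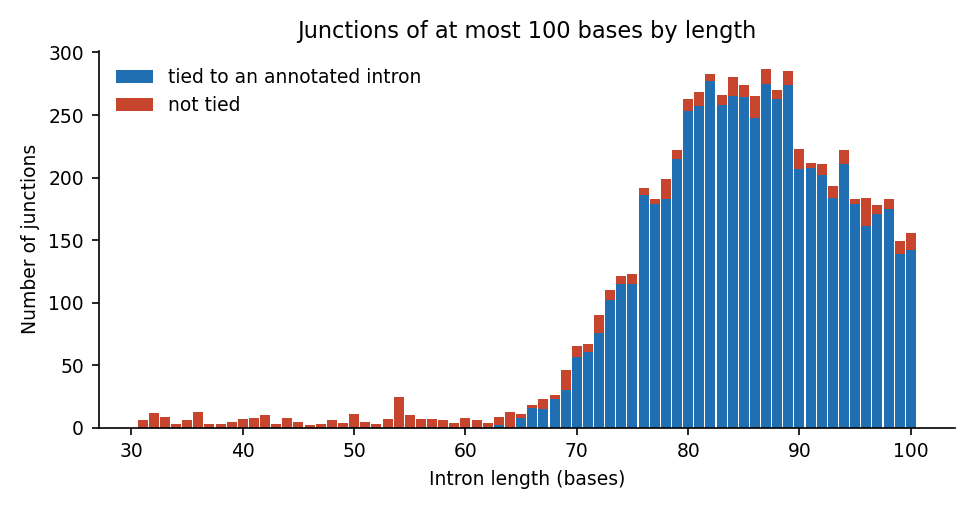
Number of junctions (y axis) at each intron length in bases (x axis), for all 6572 junctions of at most 100 bases with at least 5 reads in R1 and in R2, split by whether they were tied to an annotated intron. The tied introns rise steeply above 65 bases, while junctions that were not tied are spread over all lengths, with 25 at 54 bases.

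At the limits the values ran on without a break. There were 156 junctions of 100 bases, 91.0% of them tied, with a median of 105.5 reads, and 156 that were 1 base longer, 95.5% of them tied, with a median of 110 reads. Of the 278 members with exactly 5 reads in R1 or R2, 65.8% were tied, and of the 340 short junctions whose lower count was 4, 63.8%. Among all 17644 short junctions that missed the reads, 13.7% were tied.

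Reads on short introns spanned a wide range. They ran from 5 to 43168 in R1 and from 5 to 24226 in R2, and short introns took 6.25% of the 21172894 junction reads of R1 and 4.86% of the 29660944 of R2. The median was 124 reads per short intron over both counts, 140 for tied ones and 30 for those not tied. Junctions of 101 to 200 bases had a median of 105 reads, and all longer ones 74.5.

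The most read short introns lay in genes of varied roles. The 87-base intron of Actb had 43168 reads in R1 and 23463 in R2. The 90-base intron of Gkn1, the gastrokine of surface mucous cells, had 12306 in R1 and 24226 in R2. A 100-base intron of Atp5a1, the alpha subunit of ATP synthase, had 15257 and 13952, and a 95-base intron of Atp4a 17023 and 11917. These first 4 divided by direction: Gkn1 was the one with more reads in R2. Mrps24 followed with 15769 and 8837 reads on its 68-base intron, and the glycolytic aldolase Aldoa with 11282 and 10163 on a 95-base intron. The 73-base intron of Mrpl52, of the large mitochondrial ribosomal subunit, had 7933 and 12858. The rest of the 15 most read held between 13107 and 17066 reads in sum and lay in Cnn1 (calponin of smooth muscle), Gnb2 (a G protein beta subunit), Ndufs7 (complex I), Tmbim6, Ctse (the gastric aspartic protease cathepsin E), Ucp2 (a mitochondrial carrier), Hnrnpab (an RNA-binding protein) and Eef2 (the elongation factor of the ribosome). In all, 532 short introns had 1000 reads or more.

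These introns were picked by their reads, so high levels of their genes follow in part from that choice. Mean TPM, the deposited transcript abundance scaled by gene length and library, of Actb was 5285 ± 1218 (SD, n = 2), of Gkn1 14818 ± 3236 and of Atp4a 2043 ± 925. The median TPM of genes with a tied short intron was 17.8 in replicate 1 and 16.9 in replicate 2, against 6.83 and 6.74 for all 11072 genes with a tied junction that had the reads. The median of mean TPM was 15.9 for genes with a tied intron of 101 to 200 bases, beside 17.3 with a short one. The higher level was thus not particular to short introns. Since a junction needs reads to be a member, low genes had less chance to enter either set. The sets also differ: a gene with a short intron needed the reads on that intron, the others on any tied junction. The libraries held the markers of gastric epithelium and muscle, such as Pgc of chief cells at 101314 and 148481 TPM and Gast of G cells at 1671 and 967 TPM, while the pancreatic genes Pnlip and Cpa1 stood below 1 TPM in both.

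Most tied short introns interrupted coding sequence. By the transcript with the highest TPM that uses each intron, 5289 of 5999 (88.2%, interval 87.3% to 89.0%) lay between coding exons, 544 (9.07%) in transcripts without a coding sequence, 101 (1.68%) in a 3′ UTR and 65 (1.08%) in a 5′ UTR. Tied introns of 101 to 200 bases were coding in 88.3% and in a 5′ UTR in 2.27%, and all longer tied introns in 85.3% and 6.05%. Of the short introns in transcripts with 3 or more introns, 4.63% were the first and 10.2% the last. Of such introns of 101 to 200 bases, 5.71% were first and 10.3% last, and of all longer ones 13.4% were first and 10.8% last. In the share of first introns the short ones thus lay close to those of 101 to 200 bases and below longer introns at large. Coding short introns left no remainder after division by 3 in 31.7% (interval 30.4% to 33.0%), against 31.6% (interval 30.5% to 32.7%) of those of 101 to 200 bases and 33.6% (interval 33.2% to 34.0%) of all longer coding introns.

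Short introns often stood beside other short introns. Of the introns directly before or after a short one in its transcript that had the reads, 25.4% (2391 of 9423) were short themselves, against 18% (2087 of 11591) beside an intron of 101 to 200 bases and 9.00% (7233 of 80346) beside any longer intron. Of the 2603 genes, 1410 had 1 short intron, 439 had 4 or more and 53 had 10 or more. Across chromosomes with at least 100 junctions that had the reads, the short share was highest on chromosome 15 at 12.9% (interval 11.8% to 14%) and chromosome 17 at 12.6%, and lowest on chromosome 1 at 3.69% (interval 3.11% to 4.35%) and chromosome 18 at 3.92%.

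Short introns were most numerous in Lama5, Cpsf1 and Flna. Lama5, the laminin alpha 5 chain of basement membranes, had 30 among its 76 tied junctions with the reads (39.5%), from 72 to 99 bases, with 10 to 563 reads in R1 and 12 to 725 in R2. Cpsf1, the largest subunit of the factor that cleaves pre-mRNA before polyadenylation, had 24 of 32 (75%), with 11 to 224 reads in R1 and 8 to 235 in R2. Flna, the actin crosslinker filamin A, had 21 of 48 (43.8%), and its reads were the highest of this set, with a median of 407 in R1 and 843 in R2. Their levels differed widely, at 42.4 ± 4.6, 14.2 ± 0.884 and 665 ± 6.44 TPM. The lipid transporter Abca2 and the phosphatase-related Sbf1 had 21 each, laminin beta 2 (Lamb2) and the scavenger receptor Stab1 had 20 each, and the mechanosensitive channel Piezo1 had 19. Nbeal2 and the perlecan gene Hspg2 had 18 each, the latter among 92 junctions. The share was higher still in Tbl3, at 16 of 20 (80%).

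Read by function, the fixed gene lists differed in how many of their introns were short, beside 5999 of 67925 tied junctions with the reads (8.83%) and 2603 of 11065 gene symbols (23.5%) overall. Of 21 matrix and basement membrane genes 18 had a short intron, and 130 of their 768 junctions (16.9%) were short, such as an 86-base intron of the collagen gene Col1a1 with 1902 reads in R1 and 1521 in R2. Of 31 smooth muscle and cytoskeleton genes 16 had one, with 89 of 556 junctions (16.0%), among them the 88-base intron of Cnn1 with 10055 and 7011. Both lists lay above the share of all junctions. A few genes held most of their short introns. In the matrix list these were Lama5 (30), Lamb2 (20), Hspg2 (18) and Agrn (14). In the muscle and cytoskeleton list they were the cytoskeletal genes Flna (21), Plec (13), Flnc (11) and Tln1 (10). The list of DNA repair, DNA replication and RNA polymerase genes had the highest share, with 33 of 156 junctions (21.2%) in 9 of 13 genes, of which the helicase gene Ercc2 had a 72-base intron with 235 and 231 reads. Of these 33, Pold1 held 10 and Ercc2 8, so a few genes weigh heavily here too. Of 54 splicing and RNA processing genes 27 had a short intron (55 of 462 junctions, 11.9%), such as a 68-base intron of the splicing repressor Ptbp1 with 799 and 1299 reads. Of 43 proteasome and ubiquitin genes 16 had one (37 of 332, 11.1%), of 134 translation genes 39 (75 of 678, 11.1%), and of 28 lysosome and V-ATPase genes 11 (22 of 217, 10.1%). Ribosomal genes were represented by the 88-base intron of Rpl8 with 4853 and 7296 reads. Below the share of all junctions were the secretory pathway (24 of 321, 7.48%, in 13 of 32 genes), glycolysis and the citric acid cycle (21 of 310, 6.77%, in 10 of 30) and oxidative phosphorylation (24 of 376, 6.38%, in 16 of 92). Small nucleolar RNA host genes (2 of 48, 4.17%, in 2 of 13) and MHC class I and II (2 of 87, 2.30%, in 2 of 14) also had lower shares, but on 2 short introns each. No interval was computed for the lists, so small departures from the share of all junctions are not shown to be differences. In the secretory pathway list the 82-base intron of the chaperone gene Hspa5, in its 5′ UTR, had 5298 and 7305 reads.

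In the gene lists of the stomach's own cell types the share of short introns was above the 8.83% of all tied junctions for mucous, parietal and squamous cells. These 3 shares come from 18 to 21 short introns each, without an interval, and are not shown to differ from it. The enteroendocrine and chief cell lists had 4 short introns each, too few to place them above or below it. Among the 19 parietal introns, Slc4a2 held 10 and Atp4a 6, and among the 21 mucous ones Muc6 held 9 and Muc5ac 7. Both shares thus rest largely on a few genes. Reads on the short introns of these lists differed widely. For surface and neck mucous cells 6 of 15 genes had one, with 21 of 170 junctions (12.4%) and a median of 771 reads. The gel-forming mucin Muc5ac had a 79-base intron with 4012 reads in R1 and 7331 in R2 and a 92-base intron with 2534 and 6351. Cathepsin E had a 99-base intron with 6110 and 7560. After scaling by the column totals the Muc5ac introns were higher in R2 (log2 ratios 0.38 and 0.84) and the Ctse intron was lower (-0.18). For parietal cells, which secrete acid, 4 of 17 genes had one, with 19 of 157 junctions (12.1%), among them a 74-base intron of Atp4a with 5694 and 4015 reads and a 77-base intron of the creatine kinase Ckb with 6246 and 4835. For chief cells 2 of 8 genes had one, with 4 of 55 junctions (7.27%): an 86-base intron of the chitinase Chia1 with 2959 and 4376 reads, and 3 introns of the pepsinogen gene Pga5. All 4 of those chief cell introns had the higher count in R2, also after scaling by the column totals, but 3 of them belong to Pga5. The parietal introns did not all go the other way. Among the 6 short introns of Atp4a the lowest count was 20 in R1 and 48 in R2. The one with 20 reads in R1 was thus higher in R2, also after scaling. A 90-base intron of Slc4a2 had more reads in R2, with 2364 in R1 and 3037 in R2, but was lower there after scaling (log2 ratio -0.12). No contrast between the 2 cell types is drawn from these counts. For enteroendocrine cells 3 of 10 genes had one (4 of 35 junctions, 11.4%), of which Ghrl had 2, Hdc, which makes histamine, had 1 of 82 bases with 101 and 60 reads, and the peptide gene Pyy had 1 of 100 bases with 9 and 20. For the squamous epithelium of the forestomach 9 of 19 genes had one (18 of 158, 11.4%, with a median of 237 reads), including a 90-base intron of Krt13 with 3286 and 5414 reads and a 94-base intron of Krt4 with 3034 and 2664.

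Ghrl, which encodes the hunger hormone ghrelin, showed 2 short introns that share their donor and end 3 bases apart, and their sequences show the site.
Ghrl, 95 bases: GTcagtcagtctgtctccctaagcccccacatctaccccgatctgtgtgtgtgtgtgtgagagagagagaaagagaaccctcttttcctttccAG
Ghrl, 98 bases: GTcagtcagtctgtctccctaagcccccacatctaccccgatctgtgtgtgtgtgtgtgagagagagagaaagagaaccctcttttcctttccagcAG
They lie at chr6:113719227-113719321 and chr6:113719224-113719321 on mm10, on the minus strand, between coding exons. The longer one takes in the next 3 bases, CAG, so that the spliced message loses 1 codon. The 95-base form had 2349 reads in R1 and 6801 in R2, and the 98-base form 651 and 2046. The longer form thus made up 21.7% (interval 20.2% to 23.2%) of the pair in R1 and 23.1% (interval 22.2% to 24%) in R2, and these intervals overlapped. As background, ghrelin and a form that lacks 1 glutamine are both known from rat stomach and arise from such a pair of acceptors.

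Such close pairs of sites were not confined to Ghrl. Among pairs of junctions with the reads that shared 1 end with a short intron, with at least 1 of the pair tied, 39 differed by 3 bases at the acceptor, against 0 to 7 at each of the other distances from 1 to 6 bases. At the donor the most common distance was 4 bases, with 13 pairs, against 0 to 3 at each other distance. The longer form of the pairs with acceptors 3 bases apart held a median of 28.3% of the reads in R1 and 34.5% in R2, and the intervals of R1 and R2 did not overlap in 7 of the 39.

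The share differed widely between genes, and in some genes between the read counts. In Bag6, a chaperone of protein quality control, the longer form held 59.2% (interval 55.4% to 63.0%) in R1 and 58.8% (interval 55.0% to 62.5%) in R2. In Stxbp2, a regulator of vesicle fusion, it held 77.9% and 75.5%, in Aldh3a1, an aldehyde dehydrogenase, 90.5% and 93.3%, and in Hnrnpab 1.99% and 2.89%. In Dgkz, a diacylglycerol kinase, it held 84.3% (interval 80.4% to 87.7%) and 74.7% (interval 69.7% to 79.2%). Dgkz, Aldh3a1 and Hnrnpab were 3 of the 7 pairs of acceptors 3 bases apart whose intervals did not overlap. The other 4 had fewer reads and larger differences. The longer form held 15.1% in R1 and 51.8% in R2 for Syt8, 32.4% and 56.7% for Krt16 and 68.9% and 94.4% for Ydjc, while in Eml3 it held 35.6% and 8.93%.

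**Figure D2:**
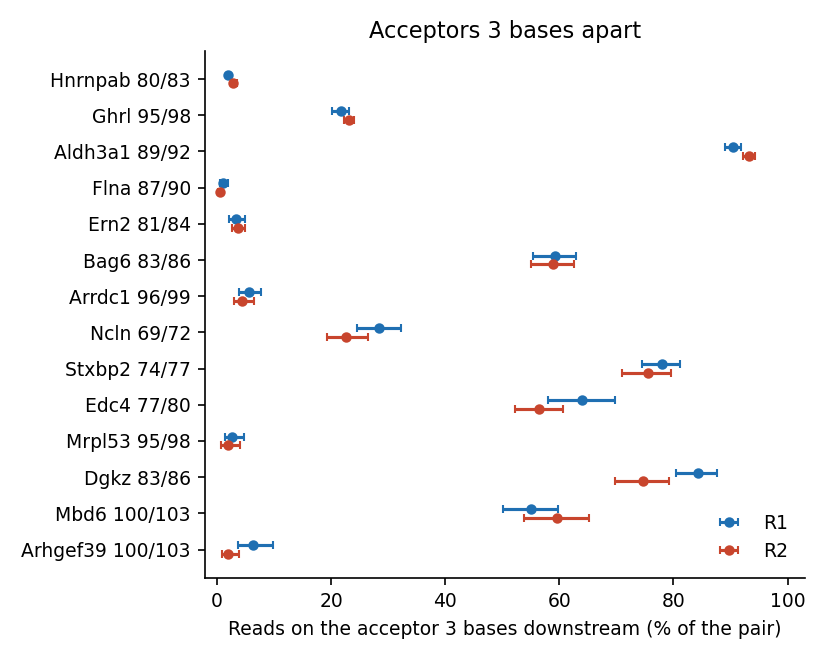
Share of the reads of a pair (x axis, percent) that used the acceptor 3 bases further downstream, for the 14 most read pairs of acceptors 3 bases apart, named by gene and both intron lengths in bases. Points are R1 and R2 and bars are 95% exact binomial intervals for counting error only; genes range from near 0% (Flna) to above 90% (Aldh3a1), and most R1 and R2 bars overlap.

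Among donors 4 bases apart, 1 form usually dominated. In Mrps24 the 68-base intron printed above had 15769 and 8837 reads, and a 64-base form that starts 4 bases further had 37 and 27. In Tmem259 the 71-base form had 2828 and 2868 reads and the 75-base form 16 and 40. A few partners that differed by 1 or 2 bases, such as an 89-base form in Actb with 7 and 6 reads beside 43168 and 23463, had a 0 in the name field C, described with the end bases. Of tied short introns, 4.23% shared their donor and 3.0% their acceptor with another junction that had the reads, where longer tied introns shared them in 6.95% and 7.12%.

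The end bases could be read for the 1392 tied short introns that some annotated transcript keeps in an exon. Of these, 1390 began with GT and ended with AG, and 2 began with GC and ended with AG. A field named C in each junction name, undefined in the sources used here, was 1 for all 1390 and 0 for both others. Over all tied short introns C was 0 in 12 (0.200%). The GC introns were a 100-base intron of Nr1h2, a liver X receptor, with 427 and 588 reads, and a 94-base intron of Pmf1, a kinetochore gene, with 10 and 17 reads, which is shown because its first 2 bases differ from the rest.
Pmf1: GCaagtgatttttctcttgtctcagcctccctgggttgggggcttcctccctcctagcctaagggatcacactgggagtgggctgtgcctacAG
It lies at chr3:88395811-88395904 on mm10, on the minus strand, in a transcript without a coding sequence. The others with C at 0 and the most reads were a 93-base intron of Rhot2, a mitochondrial GTPase, with 617 and 926, one of Fer1l4 with 175 and 263, and one of Plekhn1 with 131 and 281; their sequences were not read. Nbeal2 (81 and 90) and Wdr90 (51 and 77) followed.

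Base composition differed by length. The median GC content was 58.5% in the 1392 short introns (quartiles 53.8% and 63.3%), 56.5% in 1413 introns of 101 to 200 bases and 52.8% in 2318 of 201 to 1000 bases, all limited to introns that a transcript keeps. The motif GGG, searched on the gene's strand only, stood in 84.4% of the central 85 bases of the 635 short introns of 85 bases or more, in 84.9% of such windows in introns of 101 to 200 bases and in 74.2% in those of 201 to 1000. For this motif the short introns and those of 101 to 200 bases were within 1 percentage point of each other. The donor began with GTGAG in 38.2% of short introns and with GTAAG in 17.2%. These shares were 34.0% and 18.05% at 101 to 200 bases and 36.3% and 18.9% at 201 to 1000, so that of GTGAG did not follow length. Overlapping matches were counted once per window.

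Many short coding introns held no stop codon in frame. Of 1177 short coding introns with a sequence, 417 (35.4%) held no stop codon in the frame of the exon before them, against 17.7% of those of 101 to 200 bases and 2.85% of those of 201 to 1000 bases. Among the 370 whose length is a multiple of 3, 102 (27.6%) had no stop in frame, against 16.2% at 101 to 200 bases and 2.8% at 201 to 1000. Longer introns hold more codons in which a stop can occur. These shares were not adjusted for that number, so the order of the length classes is no finding about short introns. Shown for both features are introns of Gnb2 and Tapbp, a loader of peptides onto MHC class I.
Gnb2: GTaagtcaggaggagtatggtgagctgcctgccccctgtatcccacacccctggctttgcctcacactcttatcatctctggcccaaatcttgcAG
Tapbp: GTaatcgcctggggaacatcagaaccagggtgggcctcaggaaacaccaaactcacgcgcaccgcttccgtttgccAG
The Gnb2 intron lies at chr5:137528908-137529003 on the minus strand of mm10 and the Tapbp intron at chr17:33926350-33926427 on the plus strand. The Gnb2 intron had 4602 reads in R1 and 4520 in R2, and transcripts that keep it held 2.56% of the gene's TPM in replicate 1 and 3.55% in replicate 2. The Tapbp intron had 1081 and 1244 reads, and the transcripts that keep it held 30.1% and 22.8%.

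Annotated transcripts that keep the intron were found for more of the short introns than of longer ones. Of 5999 tied short introns 904 (15.1%) had such a transcript with a TPM value, against 913 of 7570 (12.1%) at 101 to 200 bases and 4.47% of all longer ones, and within the short introns 30.9% at 61 to 70 bases, 20.2% at 71 to 80, 13.4% at 81 to 90 and 11.7% at 91 to 100. The keeping transcripts held a median of 4.82% of their gene's TPM in replicate 1 and 5.6% in replicate 2, where introns of 101 to 200 bases had 4.0% and 4.74%. In 154 of the 904 the mean share was at least 25%. How reads were divided between transcripts rests on the deposited model, and a keeping transcript can differ from the spliced one in other exons as well. An M21 transcript without a deposited M4 value added nothing to its gene's TPM here. A spliced form that was never quantified therefore raises the share of keeping transcripts.

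The highest shares were in genes whose spliced form had few junction reads. In Acy3, an aminoacylase, Nrbp1, a pseudokinase, and Cryab, a small heat shock protein, all of the gene's quantified TPM in both replicates lay in transcripts that keep the short intron. These introns had 15 and 15, 5 and 10, and 18 and 47 reads in R1 and R2. Whether their spliced transcripts had a deposited value was not examined, so such shares do not measure how often the intron was kept. Transcripts of Mrps26 that keep its 80-base intron held 99.5% and 99.0%, and those of the phosphatase gene Dusp7 85.0% and 86.4%. A different case was Pop5, where the keeping transcripts held 52.0% and 33.7% while the 65-base intron printed above was crossed by 2728 and 879 reads. In Gcdh, a mitochondrial dehydrogenase, whose 57-base intron in the 5′ UTR was the second shortest tied, the share was 9.08% and 6.13% beside 839 and 1478 reads.

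Short introns more often lay wholly inside a stretch of continuous coverage. The contig table lists such stretches on each strand, with a joining rule that the sources used here do not give, and the smallest gap between adjacent ones was 11 bases. Of the short introns 57.8% (interval 56.6% to 59.0%) lay wholly inside 1 contig of their strand, against 40.5% (interval 39.4% to 41.6%) at 101 to 200 bases. For tied junctions alone these shares were 54.9% and 38.4%, and for those not tied 88.7% and 69.0%. The share declined from 97.1% at 31 to 60 bases, nearly all of them not tied, over 86.9%, 68.4% and 54.1% to 46.6% at 91 to 100 bases, and on to 7.55% at 501 to 1000 bases and 1.12% at 1001 to 10000. Among tied introns alone it was 82.9% at 61 to 70 bases and 44.6% at 91 to 100. Cover also depends on depth, and among tied introns with 100 to 300 reads the share was 95.7% at 61 to 70 bases (n = 47), 70.3% at 71 to 80, 44.0% at 91 to 100 and 34.5% at 151 to 200. Contig cover does not tell kept introns from the reads of overlapping transcripts. Among the 15 most read short introns, that of 93 bases in Gnb2 was not covered by a single contig.

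**Figure D3:**
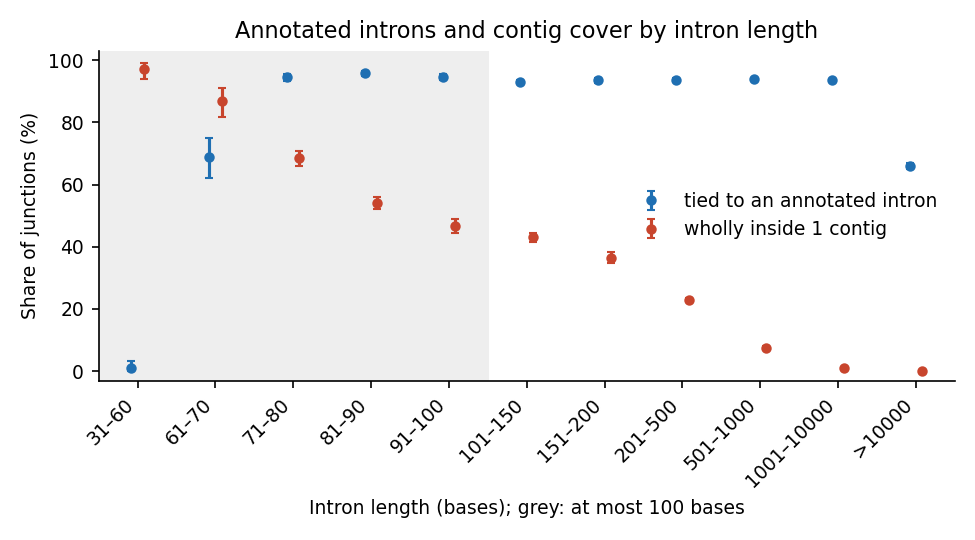
Share of junctions with at least 5 reads in R1 and R2 (y axis, percent) that were tied to an annotated intron (blue) and that lay wholly inside 1 contig of the same strand (red), by intron length (x axis, bases); bars are 95% exact intervals. The tied share is 0.957% at 31 to 60 bases and 93% to 95.8% from 71 to 10000 bases, while the contig share declines with length.

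Each tied short intron was set against the introns directly before and after it in its transcript, where these had the reads themselves. Over 5623 short introns the median log2 ratio to the mean of the adjacent introns was -0.11, with quartiles of -0.90 and 0.56, and over 52802 longer introns it was -0.18, with quartiles of -1.09 and 0.60. By length the median was -0.26 at 61 to 70 bases (n = 147), -0.14 at 71 to 80 and -0.10 in both classes from 81 to 100. Short introns were thus read about as often as their neighbours, with a spread that far exceeded these differences. Of the 58425 tied introns with such neighbours, 10.8% had at least 4-fold fewer reads than the neighbours and 4.9% at least 4-fold more; among the short ones it was 448 (7.97%) and 185 (3.29%). The shorter of the 2 exons joined gave medians of -0.18 where it was at most 50 bases, -0.17 at 51 to 100 and -0.05 at 101 to 200.

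**Figure D4:**
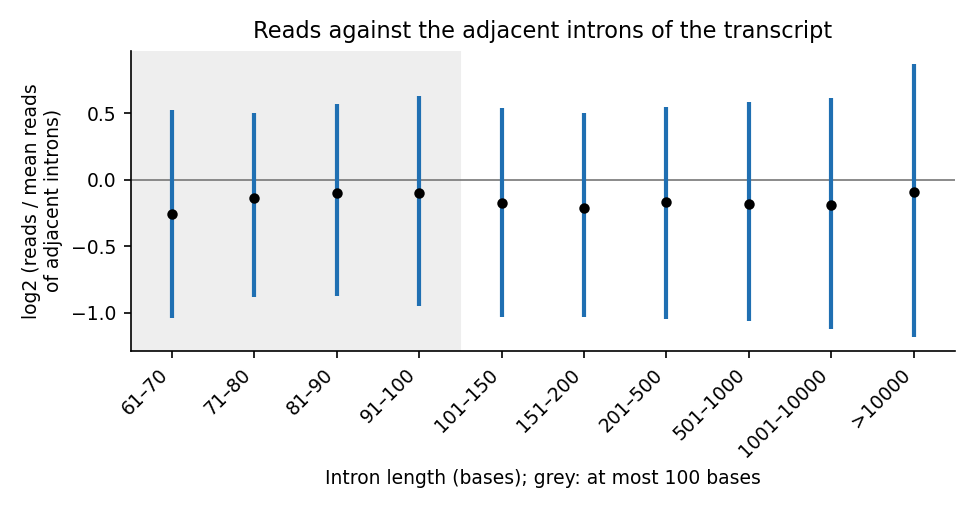
log2 ratio of an intron's reads (R1 plus R2) to the mean reads of the adjacent introns of its transcript (y axis) by intron length in bases (x axis). Points are medians and bars run from the lower to the upper quartile of introns; all medians lie between -0.26 and -0.09, far inside the quartiles. The shortest class, 31 to 60 bases, has 2 introns and is not drawn.

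Single introns departed far from their neighbours. In Mrpl52 the 73-base first intron had 20791 reads in sum and the 79-base second intron 139 (56 in R1 and 83 in R2), a log2 ratio of -7.38 to the introns on both sides, of which the third had 25619. An 87-base intron of the ribosomal protein gene Rplp0 had 12 and 66 reads, with neighbours of 5921 and 12833. The 90-base intron of Gkn1, with a log2 ratio of -4.21, compared with 45566 and 1307440 for the introns beside it, so that the neighbours themselves differed far more than the short intron did from the lower of them. Low values were also found for Cdk2ap2 (39 and 38 reads, log2 ratio -5.84), Eif3b (47 and 19, -5.71), Ift20 (22 and 38, -5.12) and Odc1 (62 and 84, -4.97). At the other end, the last intron of Ckb, of 83 bases, had 1179 and 1488 reads beside a neighbour with 30, and Hnrnpab, Syt8, Creld2 and Hmox2 had ratios of 6.17, 5.81, 5.80 and 5.61. Ribosomal protein genes and Actb have many processed copies in the genome, and the sources used here do not say how reads that fit several places were treated, so the values of Rplp0, Rpl8 and Actb are uncertain.

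R1 and R2 are 2 counts per junction that no label ties to a library, and they were compared after scaling each by its column total. The median log2 ratio of R2 to R1 was -0.22 over short introns (SD 0.84) and -0.19 over all 74900 junctions with the reads (SD 0.91). At least 2-fold apart were 1421 short introns (21.6%), beside 25.5% of all junctions with the reads. Higher in R2 were 478 (7.27%), beside 9.33% of all, and higher in R1 943 (14.3%), beside 16.2% of all. Short introns were thus no more uneven between the counts than junctions at large. The split by direction rests on the scaling: relative to the median ratio of junctions with 100 reads or more, the median over short introns was 0.02 in place of -0.22, and 761 (55.5% of those 2-fold apart) were higher in R2 and 611 in R1, where the totals put 33.6% of them higher in R2. Of tied short introns 1202 of 5999 differed 2-fold, and of those not tied 219 of 573 (38.2%), whose reads were fewer. With at least 100 reads in sum, 12.4% of 3636 short introns and 17.4% of 32205 junctions of all lengths did.

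**Figure D5:**
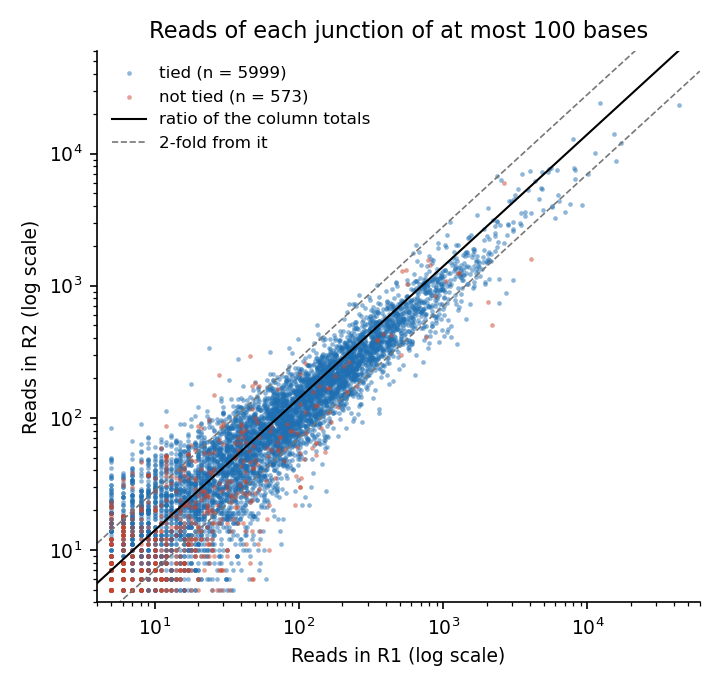
Reads in R1 (x axis, log scale) and in R2 (y axis, log scale) of each of the 6572 short introns, coloured by whether it was tied to an annotated intron. The solid line is the ratio of the column totals and the dashed lines lie 2-fold from it; points spread more widely at low reads, and junctions that were not tied gather there.

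The most uneven short introns with at least 50 reads lay in single genes. Toward R2 they were an 87-base intron of Smtn, a smooth muscle protein, with 5 reads in R1 and 83 in R2 (log2 ratio 3.57, interval 2.29 to 5.23), and a 92-base intron of Muc5ac with 24 and 337 (3.33, interval 2.73 to 3.99), followed by introns of Hmcn2, Baiap3, Muc5ac and Plxna3 between 2.81 and 3.01. Toward R1 the first was a 93-base intron of H2-Oa, an MHC class II modulator, with 59 and 6 reads (-3.78, interval -5.29 to -2.58), followed by Rhpn1, Tonsl and Klhl15 and by junctions that were not tied. The TPM of H2-Oa differed in the libraries, at 3.77 and 0.63, and that of Smtn did not to that extent, at 75.4 and 78.2. The Muc5ac gene stood at 499.5 and 895 TPM. Members of 1 gene share its level, so these introns are not independent observations.

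The 573 junctions that were not tied formed a different set. Their median length was 72 bases, against 86 for the tied ones, and 387 of them (67.5%) carried C at 0, against 12 of 5999 tied. Of these 573, 219 lay between tied junctions of a gene on the same strand and 28 more in such a span of the opposite strand only. A field named A, also undefined in the sources used here, was 1 in 5948 of 5999 tied introns and in 32 of those not tied. The 8 shortest had 31 or 32 bases and 17 to 99 reads in sum, and 7 of them carried C at 0.

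Many of them stood in crowded places. On mm9, 17 lay on chromosome 16 between 11144143 and 11144285, all with C at 0, and shared 1268 reads in R1 and 2146 in R2. In the Sprr2 cluster of chromosome 3, which encodes small proline-rich proteins of squamous epithelium, 16 lay inside the span of Sprr2a2, between 92023074 and 92023192, with 2650 and 3424 reads in sum. Another 16, at 92057887 to 92058005, again had lengths from 42 to 96 bases, with 2703 and 3443 reads. The most read of each, both of 54 bases, had 1275 and 1239 reads and 1278 and 1243 reads, nearly the same counts at both places, so reads shared between copies cannot be told apart. Pgc, the pepsinogen gene with up to 4844044 reads on a single junction, held 11 of 33 to 75 bases, with 6 to 72 reads in R1 and 8 to 164 in R2. Krt10, the keratin of upper squamous layers, held 6, and Actb 3. The most read of all that were not tied was a 36-base junction on chromosome 11 (58203754 to 58203789) with 2644 reads in R1 and 5943 in R2. It was followed by junctions of 82, 100 and 99 bases on chromosomes 2, 12 and 2, which carried A and C at 1 and had 4078 and 1601, 2045 and 757, and 2164 and 505 reads.

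For 53 of the junctions that were not tied, the surrounding exon could be read, because both introns that bound it were tied. The 15 with C at 1 began with GT and ended with AG in every case, and the 38 with C at 0 never did as placed. Around those 38 the bases repeated: the junction could be slid along identical bases by a median of 5 bases (0 to 15), and by 5 or more in 22 of them, against a median of 2 and 2 of 15 where C was 1. Sliding along the repeat turned 3 of the 38 into junctions with GC and AG ends, those of Man2c1, Rabggta and Fbf1, and none into GT and AG. They are shown by 3 examples with 20 exon bases on each side in lower case and the skipped interval in capitals, first as placed in the table.
Man2c1, as placed: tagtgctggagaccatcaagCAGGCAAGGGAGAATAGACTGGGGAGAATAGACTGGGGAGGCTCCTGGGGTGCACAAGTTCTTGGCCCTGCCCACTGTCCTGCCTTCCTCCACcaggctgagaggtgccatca
Man2c1, moved by 3 bases: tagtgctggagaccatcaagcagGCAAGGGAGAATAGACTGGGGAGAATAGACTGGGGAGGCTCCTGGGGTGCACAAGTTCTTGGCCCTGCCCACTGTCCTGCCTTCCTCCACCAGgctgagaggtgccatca
Krt10: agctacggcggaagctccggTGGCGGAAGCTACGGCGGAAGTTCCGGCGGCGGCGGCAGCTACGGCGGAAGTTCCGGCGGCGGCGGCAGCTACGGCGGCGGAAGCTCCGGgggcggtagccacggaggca
Fastk: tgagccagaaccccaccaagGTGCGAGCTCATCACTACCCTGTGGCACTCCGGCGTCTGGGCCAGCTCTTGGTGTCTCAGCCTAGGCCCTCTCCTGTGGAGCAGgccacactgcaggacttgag
As placed they lie on mm10 at chr9:57141710-57141802 on the plus strand, chr11:99386114-99386203 on the minus strand and chr5:24443992-24444075 on the minus strand, inside exons of 352, 339 and 232 bases. Man2c1, an alpha-mannosidase, had 561 reads in R1 and 1033 in R2 on this 93-base interval, the most of the 53. The 90-base interval of Krt10 could be slid by 15 bases and had 94 and 22 reads. Fastk, a kinase-like mitochondrial protein, had 27 and 22 reads on an 84-base interval with GT and AG ends.

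The 15 junctions with GT and AG ends inside exons were 60 to 100 bases long, and 7 had a length that is a multiple of 3. They lay in 15 genes. The most read were a 78-base interval of Cd300lg, an endothelial receptor, with 28 and 68 reads, a 60-base one of Krt10 with 50 and 27, and a 75-base one of Tmem259 with 16 and 40. The Tmem259 interval is the 75-base form described above, whose donor lies 4 bases from that of a tied 71-base intron. A 98-base interval of Paxx, with 8 and 20 reads, shared its donor with a tied 92-base intron and ended 6 bases further. Not all of the 15 thus stood apart from annotated introns, because the exon read can keep such an intron. Dyrk1b, a kinase, followed Fastk with 84 bases and 30 and 7 reads. The median over the 15 was 27 reads in sum, close to the 26 of the 38 with C at 0, and far below the 140 of tied short introns.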

How the data were processed

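Splice junctions were taken from the deposited mm9 table, in which the authors gave counts of reads per junction, equal to R1 plus R2 (the sources used here name no caller). The deposited contig table, also on mm9, holds a signal per contig. A score in the last column of both deposited tables, read here as reproducibility, served only in alternatives, with 0.1 as upper bound. Expected counts and TPM per gene and transcript were deposited by the authors for each library, from transcriptome alignments on mm10 with GENCODE M4, per the README beside the tables.

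The members and gene lists were chosen with earlier results of these data known. Junctions were tied to GENCODE M21 introns by the lengths and spacing of at least 2 introns of a gene, without converting coordinates, and transcripts that keep an intron were found in M21 and matched by identifier to the deposited TPM; the procedure was tested on simulated data. Python 3.11.15, pandas 2.3.3, numpy 2.4.6 and scipy 1.17.1 were used. Shares carry 95% exact Clopper-Pearson intervals, which cover counting error only, and no p-value was computed, because the design has 1 group. Levels are mean TPM ± SD over 2 libraries. The numbering of R1 and R2 was tied to neither library.

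Named were the 15 members with most reads, the 8 shortest tied and not tied, the genes with the most members, up to 4 members with the most reads per list, the 6 most extreme ratios each way among those with at least 50 reads, up to 6 tied members with C at 0, and the 6 genes of mean TPM of at least 5 with the largest share in keeping transcripts. Pairs of close sites, junctions inside exons, crowded places and the printed introns of Atp4a, Pmf1 and 2310061I04Rik (73 bases) were picked after their values were seen. Sequence from chromosome 18, 1 gene and 1 gene list that these rules select are not reported here.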

Additional observations from a re-analysis of the deposited data

How the results depend on the processing

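A limit of 80 bases left 2000 short introns in place of 6572; limits of 120 bases, at least 3 or 20 reads in both counts and the reproducibility field left between 4580 and 9117. The tied share of 91.3% was 90.3% with introns of protein-coding transcripts only, 82.0% with a limit of 80 bases and 96.5% with at least 20 reads in both counts, and 90.9% with 3 junctions needed for a tie. The share that differed 2-fold between R1 and R2, 21.6%, was 24% without scaling, 12.8% with at least 20 reads and 20.9% when scaled by the median ratio. The median log2 ratio to the neighbouring introns, -0.11, was -0.13 in R1 alone and -0.33 against all other tied introns of the gene, and stayed negative in every alternative run. The share inside 1 contig, 57.8%, lay between 57.8% and 59.0% under both contig alternatives. The median TPM share of keeping transcripts, 5.45%, ranged from 4.82% to 5.6% when either replicate was left out, and was 3.91% from expected counts. The median TPM of genes with a short intron, 17.3, ranged from 16.9 to 17.8 without either replicate. The cause of these changes was not tested, beyond the fewer junctions that stricter limits leave. No paired analysis was possible because the libraries form 1 group. Depth limits junctions near 5 reads, where a 2-fold difference lies within counting error.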
